A study of Mus musculus with 6 samples.

Results

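The 7 genes described here encode the proteins that bind calcium inside hair cells (HCs) and neurons of the cochlea and those that return it across the plasma membrane. They are *Pvalb*, *Calb1* and *Calb2*, which encode the soluble buffers parvalbumin α, calbindin D-28k and calretinin, *Atp2b1*, *Atp2b2* and *Atp2b4*, which encode the plasma membrane calcium pumps PMCA1, PMCA2 and PMCA4, and *Slc8a1*, which encodes the sodium-calcium exchanger NCX1. All 7 were found by symbol among the 14865 listed genes. They were chosen by their function and with their measured values in view: the rule that selected them used their level in each of the 6 libraries, the difference between the genotypes, and how closely each followed *Otof*, a marker of HCs, or *Nefm*, a marker of nerve. These 3 kinds of value are therefore given for the 7 genes as a description without a test.

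RNA was sequenced from the cochlear ducts of C57BL/6 mice at postnatal day 8 (P8), in 3 libraries from *Gfi1*+/+ mice and 3 from *Gfi1*cre/+ mice, which carry Cre recombinase in place of 1 copy of *Gfi1*, a transcriptional repressor gene needed for HC differentiation. Cre in this line is driven by the *Gfi1* promoter, which is active in HCs and also in cells of the blood and immune lineages. A *Gfi1*+/+ library came from 1 mouse (2 cochleae), whereas a *Gfi1*cre/+ library was a pool of 3 mice (6 cochleae), so that the spread among *Gfi1*+/+ libraries is among animals and that among *Gfi1*cre/+ libraries is among pools. Recovered totals ran from 13603908 to 19359753 reads per library, and all levels below are normalized reads, that is reads divided by the size factor of the library. As the whole duct was sequenced, fewer cells of a type and less RNA per cell cannot be told apart.

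The libraries differed in ways that touch the values below. *Gfi1*, part of which remains in the *Gfi1*cre/+ transcript, was at 147, 160 and 152 normalized reads in *Gfi1*+/+ and at 136, 130 and 139 in *Gfi1*cre/+. *Gfi1*+/+ replicate 1 stood apart in neuronal RNA: the 15 listed neuron markers summed to 14076 normalized reads there and to between 4533 and 7190 in the other libraries. *Mbp*, a myelin gene, and *Mog*, made by oligodendrocytes, were also higher in it, at 18871 and 232 normalized reads, against at most 4216 and 3.55 elsewhere. The 19 listed HC markers were present in every library, and their sum, which was led by *Myo6*, ran from 11100 to 11628 in *Gfi1*+/+ and from 10798 to 11030 in *Gfi1*cre/+. Of these 19 genes 16 had a lower mean in *Gfi1*cre/+, against 50.1% of all genes tested, at a median log2 difference of -0.11, and none was called at an unadjusted p under 0.05 (limma). The 16 include *Gfi1* itself. In 4 of the 19, *Lhfpl5*, *Chrna9*, *Cib2* and *Gfi1*, every *Gfi1*cre/+ library was lower, against 4.07% of all genes tested. Erythroid markers were higher in *Gfi1*cre/+, all 10 of those listed by mean and 9 at an unadjusted p under 0.05, where 1.02% of all genes were called higher, with a median log2 difference of 0.99. None of the 10 passed at an adjusted p under 0.05. The sum of 4 Y-linked genes was at most 2.10 in *Gfi1*+/+ libraries and at least 794 in *Gfi1*cre/+ libraries, so sex and genotype cannot be told apart.

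Calcium enters HCs through mechanotransduction channels at the tips of the stereocilia and through voltage-gated channels beside the ribbon synapses. Buffers such as parvalbumin, calbindin and calretinin hold the entering ions and limit how far they spread, PMCA pumps use ATP to expel them, and sodium-calcium exchangers expel them in return for sodium. PMCA2 is the pump of the stereocilia, most abundant in outer HCs, and mice that lack it are deaf. Parvalbumin and calretinin are also made by spiral ganglion neurons, and fast-twitch muscle and cerebellar Purkinje cells are further well-known sources of parvalbumin. The sources of these transcripts outside HCs matter because HCs are a small share of the cells in the duct.

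GFI1 binds DNA at sites with an AATC core, so the promoters of the 7 genes were searched for AATC, and for the longer AAATCA, on both strands in the 250 bases before each RefSeq start of GRCm38.p6. Windows were found for 5 of the 7 genes, and *Calb1* and *Calb2* had none. Of 9 windows, 2 held AATC and the same number held AAATCA, every occurrence of which includes an AATC match. Among 32851 windows of the same length, 69% held AATC and 12.4% held AAATCA. The first of the windows below is shown because *Pvalb* had the lowest difference between the genotypes of the 7, the second because it is the only 1 of 3 windows of the HC stereocilia pump *Atp2b2* that held a match. The *Pvalb* window lies at chr15:78206401-78206650, directly before the first exon on the minus strand, and held no match. The *Atp2b2* window lies at chr6:113934682-113934931 on the minus strand, before an internal start of the gene, and its 1 match, in capitals, begins 113 bases before that start. Both are written 5′ to 3′ on the strand of the gene. A match is a description of the letters, not evidence of binding.
Pvalb: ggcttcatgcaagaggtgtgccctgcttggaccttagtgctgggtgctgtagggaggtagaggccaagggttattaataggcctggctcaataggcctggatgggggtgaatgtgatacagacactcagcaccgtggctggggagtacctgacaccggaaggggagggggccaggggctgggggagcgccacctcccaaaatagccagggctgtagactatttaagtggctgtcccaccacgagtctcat
Atp2b2: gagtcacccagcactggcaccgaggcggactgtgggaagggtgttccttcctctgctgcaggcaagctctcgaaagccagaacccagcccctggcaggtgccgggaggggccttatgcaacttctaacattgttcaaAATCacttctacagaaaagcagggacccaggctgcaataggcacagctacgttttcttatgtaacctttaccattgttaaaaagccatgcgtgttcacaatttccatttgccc

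All 7 genes were detected in every library, with between 45 and 3502 reads per gene and library, and all passed the minimum of 40 normalized reads in at least 1 library. Per kilobase of exon, their mean levels over the 6 libraries spanned from 3.14 to 383 normalized reads. *Calb2* was highest at 383, with libraries from 358 to 428, followed by *Pvalb* at 295, with libraries from 206 to 374. The ranges of these neighbours overlapped. *Atp2b1* at 198 was the most abundant pump, above *Calb1* at 153, *Atp2b2* at 81.9 and *Atp2b4* at 59.8, and the libraries of these 4 genes did not overlap from neighbour to neighbour. *Slc8a1* was far below, at 3.14 with libraries from 2.52 to 4.40. Among all genes tested, *Calb2* stood at percentile 82.8 of the level per kilobase, *Atp2b2* at percentile 41.3 and *Slc8a1* at percentile 0.257. For the longest genes of this group, with exonic lengths of 18807 bases in *Slc8a1* and 15218 in *Atp2b1*, the annotated exons of all isoforms are summed, so a level per kilobase is a lower estimate where only a short isoform is made.

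**Figure D1:**
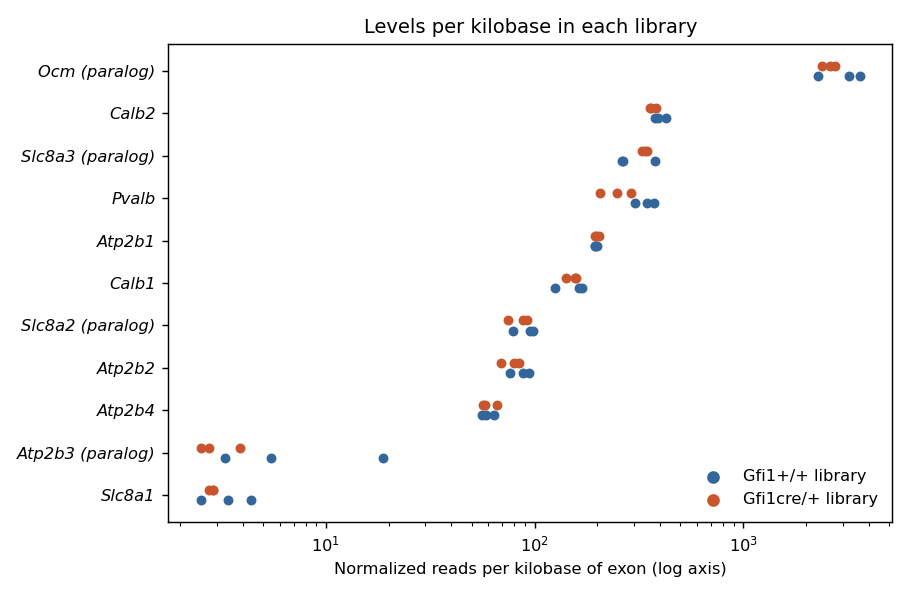
Normalized reads per kilobase of exon in each library, on a log axis, for the 7 genes and 4 paralogs (upper points of each row, *Gfi1*cre/+; lower points, *Gfi1*+/+). *Ocm* lies above all 7 genes, and *Slc8a1* and *Atp2b3* lie at the bottom, with means of 3.14 and 6.09 normalized reads per kilobase, and *Atp2b3* has its highest point in a *Gfi1*+/+ library.

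Within its family, *Slc8a1* was the minor exchanger. *Slc8a3*, which encodes NCX3, made up 77.6% of the summed per-kilobase level of the 3 exchanger genes, with libraries from 71.8% to 82.4%, *Slc8a2*, which encodes NCX2, made up 21.6%, and *Slc8a1* 0.781%, with libraries from 0.548% to 1.20%. Among the 4 PMCA genes, *Atp2b1* held 57.3%, *Atp2b2* 23.6% and *Atp2b4* 17.3%. *Atp2b3*, best known from the brain, held 1.72% on average but 5.10% in its highest library. Among 4 EF-hand buffer genes, *Ocm*, which encodes oncomodulin, the β-parvalbumin of outer HCs, held 76.9%, against 10.7% for *Calb2*, 8.14% for *Pvalb* and 4.28% for *Calb1*. The share of *Pvalb* ran from 6.62% to 11.5% over the libraries.

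*Pvalb* (ENSMUSG00000005716; mm10 chr15:78191114-78206400, minus strand) was the gene that differed most between the genotypes. It was at 362, 389 and 314 normalized reads in *Gfi1*+/+ and at 258, 214 and 303 in *Gfi1*cre/+. Every *Gfi1*cre/+ library was below every *Gfi1*+/+ library, although *Gfi1*cre/+ replicate 3 and *Gfi1*+/+ replicate 3 were only 11.5 normalized reads apart. The means were 355 ± 38.0 (SD, n = 3) and 258 ± 44.5 (SD, n = 3), a level 27.3% lower in *Gfi1*cre/+ and a log2 difference of -0.47 (SE 0.13). With any 1 library left out, the log2 difference stayed between -0.59 and -0.34. As *Pvalb* was selected on this contrast, no test is given. Among all genes tested, 2.19% had a lower difference, and 4.07% were lower in *Gfi1*cre/+ in every library. *Pvalb* was the only 1 of the 7 genes whose genotypes did not overlap. Its coefficient of variation over the 6 libraries was 21.1%, against 5.74% from counting error alone.

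Divided by *Otof* of the same library, *Pvalb* was at 0.219, 0.213 and 0.196 in *Gfi1*+/+ and at 0.159, 0.144 and 0.206 in *Gfi1*cre/+. On this scale, chosen after the values had been seen, the genotypes overlapped and the log2 difference was -0.32, a shift that follows by construction from the log2 difference of *Otof*, -0.15. Other sources of parvalbumin were looked at through their markers. Only 4 of 15 skeletal muscle markers were listed, with *Acta1*, *Ckm* and *Myh1* not among the listed genes, and the sum of those 4 ran from 66.0 to 101 normalized reads in *Gfi1*+/+ and from 63.5 to 76.4 in *Gfi1*cre/+. Of 12 markers of cerebellum and cochlear nucleus, 10 were listed, and *Pcp2*, a Purkinje cell marker, was not. The sum of the 10 ran from 11950 to 14003 in *Gfi1*+/+ and from 13090 to 13408 in *Gfi1*cre/+ and was made up mostly of *Itpr1*, *Zic2* and *Aldoc*. Among its scarcer members, *Gfap* and *Cbln1* were highest in *Gfi1*+/+ replicate 1, at 307 and 50.6 normalized reads, against at most 123 and 25.7 elsewhere. Of the neuron markers, all 14 that were tested had a lower mean in *Gfi1*cre/+, against 50.1% of all genes, and 6 were lower at an unadjusted p under 0.05 (limma), against 2.02% of all genes. None of the 14 passed at an adjusted p under 0.05 and none had genotypes that did not overlap, and the highest sum was that of *Gfi1*+/+ replicate 1. *Prph* reached the minimum of 40 normalized reads only in that library, which favours a lower mean in *Gfi1*cre/+. The part of HCs, neurons or blood in the *Pvalb* difference was not tested. Without *Gfi1*+/+ replicate 1, the library with the most neuronal RNA, the log2 difference of *Pvalb* was -0.45.

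*Calb2* (ENSMUSG00000003657; chr8:110137502-110168210, minus strand) encodes calretinin, a buffer of inner HCs and spiral ganglion neurons. It was at 684, 745 and 657 normalized reads in *Gfi1*+/+ and at 623, 633 and 667 in *Gfi1*cre/+. The genotypes overlapped through a single pair, since *Gfi1*cre/+ replicate 3 was above *Gfi1*+/+ replicate 3. The means were 695 ± 45.3 and 641 ± 23.1 (SD, n = 3 each), with a log2 difference of -0.12 (SE 0.07). Relative to *Otof* the difference was 0.03, so its sign turned, a shift that follows by construction from the log2 difference of *Otof*, -0.15.

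*Calb1* (ENSMUSG00000028222; chr4:15881264-15908064, plus strand) encodes calbindin D-28k. It was at 820, 792 and 610 normalized reads in *Gfi1*+/+ and at 769, 759 and 687 in *Gfi1*cre/+. Replicate 3 was the lowest library of each genotype, and all *Gfi1*cre/+ values lay inside the *Gfi1*+/+ range. The means were 740 ± 114 and 738 ± 44.9 (SD, n = 3 each), and the log2 difference was 0.01 (SE 0.11), with a range of -0.13 to 0.09 on leaving out 1 library.

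**Figure D2:**
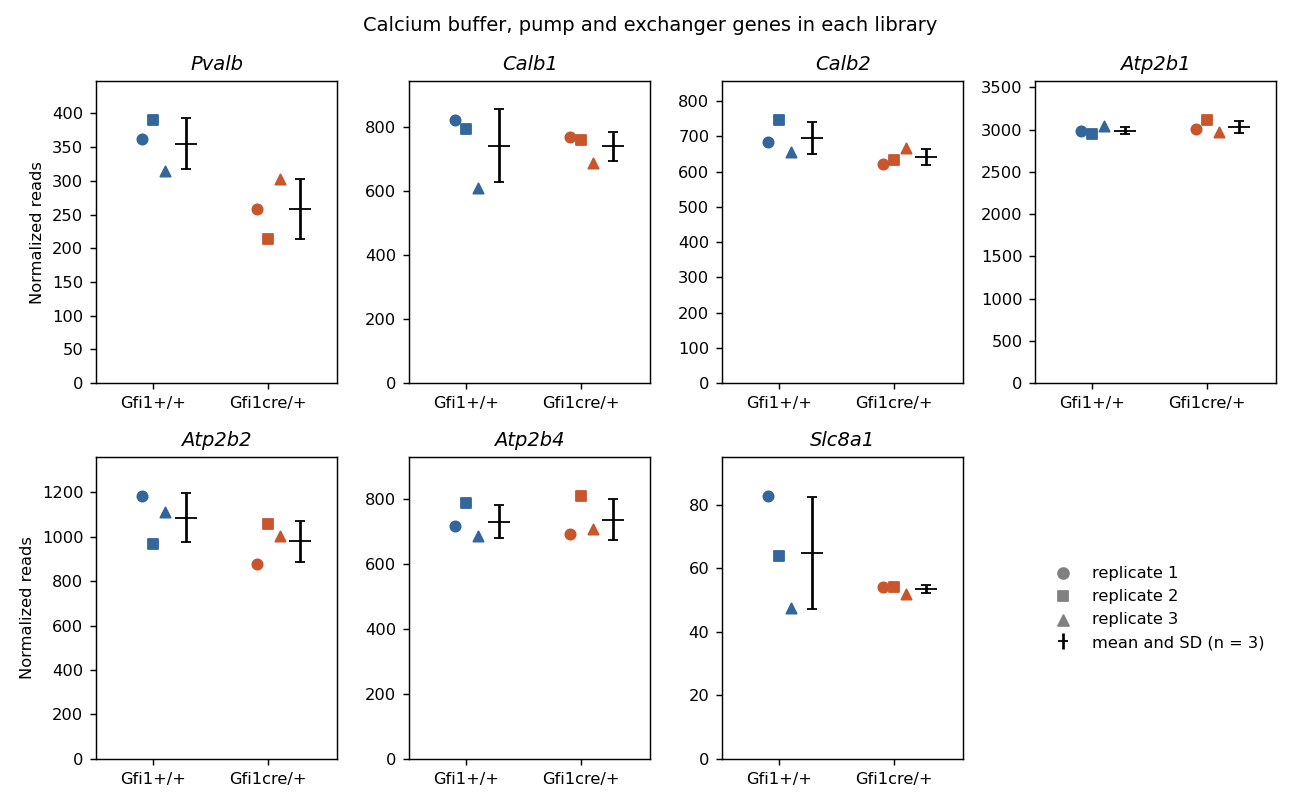
Normalized reads of each of the 7 genes in the 3 *Gfi1*+/+ and 3 *Gfi1*cre/+ libraries (points), with the mean and SD of each genotype (n = 3) beside them. Only in *Pvalb* do the points of the genotypes not overlap, and in *Slc8a1* the *Gfi1*+/+ libraries spread from 47.5 to 82.7 while the *Gfi1*cre/+ libraries sit between 51.9 and 54.2.

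*Atp2b1* (ENSMUSG00000019943; chr10:98914406-99026143, plus strand) encodes PMCA1, the pump found in most cell types and in the basolateral membrane of inner HCs. Its libraries were nearly level, at 2978, 2950 and 3038 normalized reads in *Gfi1*+/+ and at 3012, 3109 and 2977 in *Gfi1*cre/+. The means were 2989 ± 44.6 and 3033 ± 68.2 (SD, n = 3 each) and the log2 difference was 0.02 (SE 0.05). The coefficient of variation over all libraries was 1.89%, close to the 1.81% expected from counting error alone. Only 1.19% of the genes tested had a smaller range over the 6 libraries.

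*Atp2b2* (ENSMUSG00000030302; chr6:113743831-114042613, minus strand), the stereocilia pump whose internal promoter window is printed above, varied more. It was at 1183, 965 and 1110 normalized reads in *Gfi1*+/+ and at 876, 1057 and 1005 in *Gfi1*cre/+. The lowest library was *Gfi1*cre/+ replicate 1 and the next *Gfi1*+/+ replicate 2, so the genotypes overlapped. The means were 1086 ± 111 and 979 ± 93.5 (SD, n = 3 each), with a log2 difference of -0.15 (SE 0.09). *Otof* itself had a log2 difference of -0.15 (SE 0.07), and relative to it *Atp2b2* differed by 0.00. Leaving out *Gfi1*+/+ replicate 1 brought the difference of *Atp2b2* to -0.08, and leaving out *Gfi1*cre/+ replicate 1 brought it to -0.07.

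*Atp2b4* (ENSMUSG00000026463; chr1:133699457-133801041, minus strand) encodes PMCA4. It was at 715, 787 and 687 normalized reads in *Gfi1*+/+ and at 693, 808 and 706 in *Gfi1*cre/+. Replicate 2 was the highest library of each genotype, and the genotypes overlapped over nearly their whole range. The means were 730 ± 52.0 and 735 ± 63.0 (SD, n = 3 each) and the log2 difference was 0.01 (SE 0.08), with a range of -0.06 to 0.07 on leaving out 1 library. Of its exonic bases, 6 are shared with the microRNA gene *Mir6903*.

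*Slc8a1* (ENSMUSG00000054640; chr17:81373105-81738377, minus strand), the exchanger best known from heart muscle, rested on between 45 and 67 reads per library. It was at 82.7, 63.9 and 47.5 normalized reads in *Gfi1*+/+ and at 54.0, 54.2 and 51.9 in *Gfi1*cre/+. The *Gfi1*cre/+ libraries lay within 2.26 normalized reads of each other, inside the *Gfi1*+/+ range. The means were 64.7 ± 17.6 and 53.3 ± 1.25 (SD, n = 3 each) and the log2 difference was -0.24 (SE 0.22). Most of it came with *Gfi1*+/+ replicate 1, which was 1.52 times the mean of the other 5 libraries and without which the difference was -0.05. Without *Gfi1*+/+ replicate 3 it was -0.44. Of its exonic bases, 296 overlap an antisense gene on the other strand, and the sources used here do not say whether reads were counted by strand.

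Over the 7 genes, 4 had a lower and 3 a higher mean log2 level in *Gfi1*cre/+, and the median log2 difference was -0.12. Over all 14455 genes tested the median was -0.00, with quartiles of -0.06 and 0.05, and 50.1% were lower. None of the 7 was called at an adjusted p under 0.05 in the fit across all genes, where 0.0277% of the genes were. At the unadjusted threshold 1 of them was called, in the lower direction in which 2.02% of the genes were called. Nothing is read from either count, adjusted or unadjusted, because the contrast was used to choose the 7 genes. Of the 7 log2 differences, 5 were smaller than 0.2 in size, as were 89.1% of all genes tested. The signs of *Calb1* and *Atp2b4*, both nearly 0, turned on leaving out some of the libraries, and that of *Calb1* also turned with edgeR and DESeq2.

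**Figure D3:**
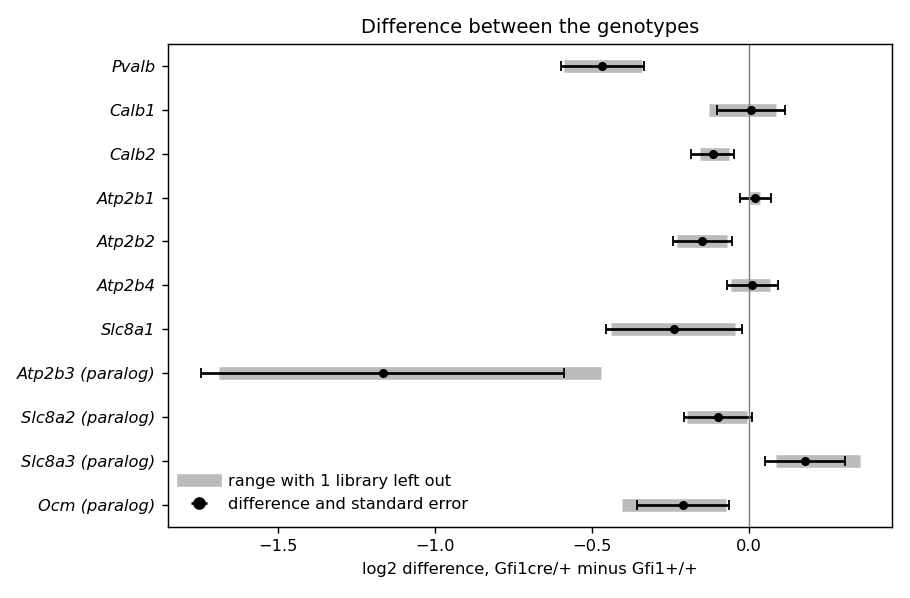
Log2 difference, *Gfi1*cre/+ minus *Gfi1*+/+, of the 7 genes and 4 paralogs (points, with bars for 1 standard error) and its range when each of the 6 libraries is left out in turn (grey). *Pvalb* lies at -0.47 and stays below -0.3 throughout, and *Atp2b3* moves from -1.17 to -0.47 without *Gfi1*+/+ replicate 1.

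The 4 paralogs were not part of the rule that chose the genes, and tests of their differences are given. They belong to lists that were chosen with earlier results of these data known, so these tests are not independent of the data. *Atp2b3* was at 90.1, 26.2 and 15.8 normalized reads in *Gfi1*+/+ and at 12.2, 18.6 and 13.2 in *Gfi1*cre/+, so that *Gfi1*+/+ replicate 1 was 5.24 times the mean of the others. Its log2 difference was -1.17 (SE 0.58) and fell in size to -0.47 without that library. *Atp2b3* reached the minimum of 40 normalized reads only in that library, which favours a lower difference. *Slc8a3* was at 1399, 1420 and 2022 in *Gfi1*+/+ and at 1740, 1811 and 1848 in *Gfi1*cre/+, where replicate 3 of *Gfi1*+/+ was above all *Gfi1*cre/+ libraries and the other 2 below them. Its log2 difference was 0.18 (SE 0.13), and without *Gfi1*+/+ replicate 3, its highest library, it was 0.35 with an adjusted p of 0.0322 (limma). In that setting 48 of all genes tested passed, against 4 with all libraries. On leaving out any other library, the adjusted p of *Slc8a3* was at least 0.999 (limma). *Ocm* was at 2365, 1673 and 2644 in *Gfi1*+/+ and at 1910, 1743 and 2029 in *Gfi1*cre/+, with a log2 difference of -0.21 (SE 0.15). Leaving out *Gfi1*+/+ replicate 2 moved this to -0.40, and leaving out *Gfi1*+/+ replicate 3 moved it to -0.07. *Slc8a2* differed by -0.10 (SE 0.11). None of these 4 differences passed the test (limma, adjusted p = 0.999 for each).

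The libraries were compared next with *Otof*, which encodes the otoferlin of HC ribbon synapses, and *Nefm*, which encodes a neurofilament of nerve fibres. *Otof* was at 1650, 1832 and 1601 normalized reads in *Gfi1*+/+ and at 1620, 1490 and 1467 in *Gfi1*cre/+. *Nefm* was at 3449, 712 and 378 in *Gfi1*+/+ and at 178, 315 and 499 in *Gfi1*cre/+. Its highest library, *Gfi1*+/+ replicate 1, was 8.28 times the mean of the others, so that any gene with a near-level profile lies closer to *Otof* than to *Nefm*. The root-mean-square distance between the log2 deviations of a gene and those of *Otof* ran from 0.0724 in *Calb2* to 0.228 in *Slc8a1*, and the distance to *Nefm* from 1.12 in *Slc8a1* to 1.35 in *Atp2b1*. All 7 genes were nearer to *Otof*, also under each of the 11 alternatives run. The swing of *Nefm* set this outcome, so it does not show that the genes follow HC signal. Other normalizations move a gene and its reference alike and cannot change these distances. Means over the HC and neuron lists, used in place of *Otof* and *Nefm*, still held both genes.

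Correlations over the 6 libraries describe the shape of each profile, with all genes sharing the same libraries and size factors, and they are given without a p. *Calb2* had a Pearson r of 0.730 with *Otof* (Spearman's rho 0.486) and of 0.569 with *Nefm* (rho 0.943). *Pvalb* had an r of 0.711 with *Otof* (rho 0.714) and of 0.671 with *Nefm* (rho 0.829). With the mean profile of the HC list *Calb2* had an r of 0.127 and *Pvalb* of 0.503, and with that of the neuron list these were 0.585 and 0.678. The r of *Calb2* with HC signal thus depended on whether *Otof* or the list was used. The libraries farthest from the median log2 level were *Gfi1*+/+ replicate 2 and *Gfi1*cre/+ replicate 3 for *Otof*, and replicate 1 of each genotype for *Nefm*. Without these 2 libraries, r of *Pvalb* was 0.854 with *Otof* and 0.882 with *Nefm*, and r of *Calb2* was 0.523 and 0.960. *Calb1* had an r of 0.397 with *Otof* (rho 0.771) and of 0.408 with *Nefm* (rho 0.486). Without the 2 farthest libraries these were 0.0860 and 0.400, and without *Gfi1*+/+ replicate 1 alone the r with *Nefm* was -0.0550.

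Among the genes of extrusion, *Slc8a1* had the highest r with *Nefm*, 0.874 (rho 0.543). This was 0.428 without *Gfi1*+/+ replicate 1 and 0.713 without the 2 farthest libraries. *Atp2b2* had an r of 0.702 with *Nefm* (rho 0.486), of -0.144 with *Otof* (rho -0.0857) and of 0.606 with the HC list (rho 0.486). The r of the stereocilia pump with HC signal therefore also depended on the marker used. Its r with *Nefm* was 0.364 without *Gfi1*+/+ replicate 1 and -0.848 without the 2 farthest libraries, so the positive value rested on those libraries. *Atp2b1* had an r of -0.582 with *Otof* and *Atp2b4* of 0.164, and both genes varied little over the libraries. Between the 7 genes, *Pvalb* and *Calb2* had an r of 0.864 with each other and *Pvalb* and *Atp2b1* one of -0.865.

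**Figure D4:**
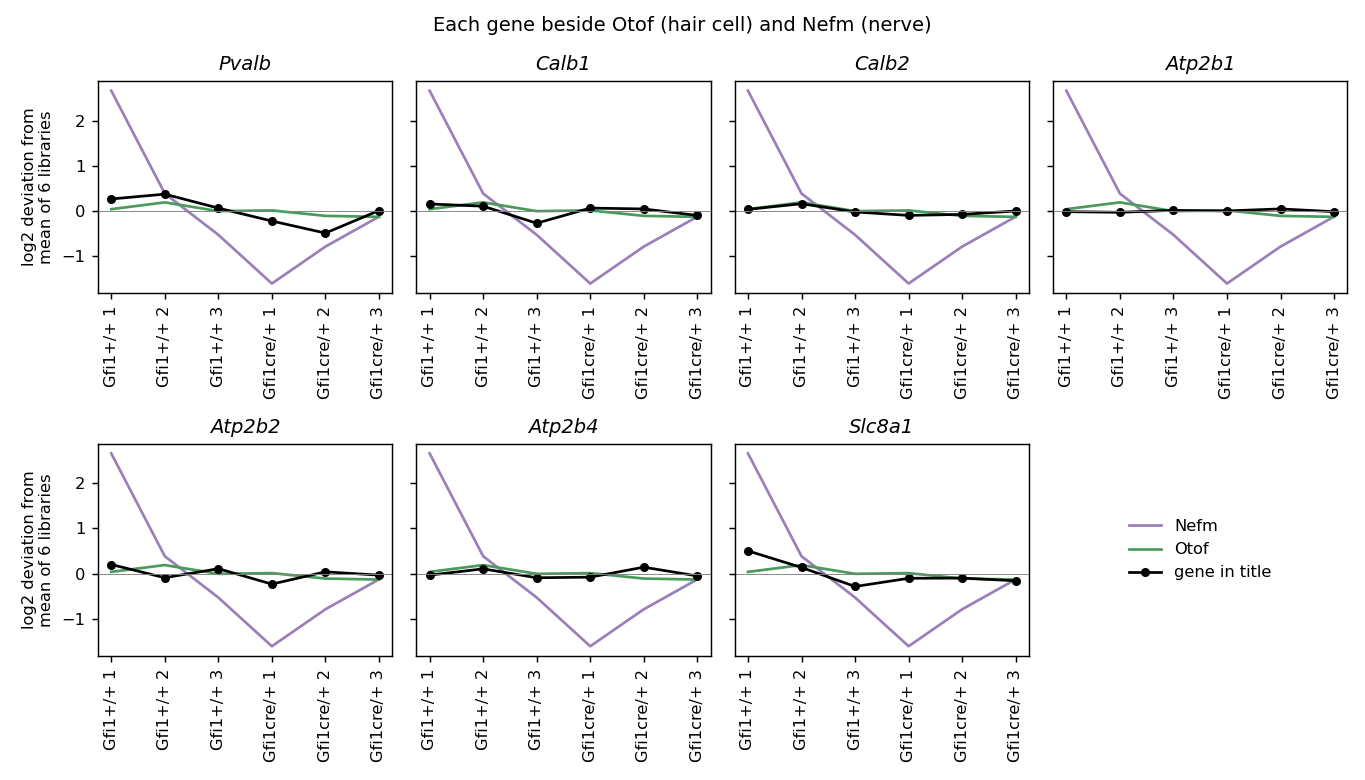
Log2 deviation of each of the 7 genes (black) from its mean over the 6 libraries, with *Otof* (green) and *Nefm* (purple) on the same axis, for the libraries in the order of the labels. *Nefm* swings between a high of 2.66 (*Gfi1*+/+ replicate 1) and a low of -1.60 (*Gfi1*cre/+ replicate 1) and sets the axis. *Otof* stays between -0.13 and 0.19, and the 7 genes between -0.49 (*Pvalb*) and 0.50 (*Slc8a1*).

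The genes with the profile most like each member, by Pearson r of log2 levels over the 6 libraries, were sought among 10364 genes that averaged 200 normalized reads or more. For *Pvalb* they were *Rrn3* (r = 0.987), *Supt4a* (0.973) and *Vdac3* (0.972), and 8 genes passed an r of 0.95. For *Calb1* they were *Fam107b*, *Sdf2* and *Crabp2*, with 55 genes past 0.95, and for *Calb2* they were *Lyrm2*, *Tmem51* and *Rpl36-ps2*, with 9 genes. *Atp2b1* was most like *Pik3c2b*, *Gm5763* and *Kazn*, *Atp2b2* most like *Skil*, *Rrp12* and *Rab4a*, and *Atp2b4* most like *Kdm5a*, *Ppp1r3b* and *Abcc1*. For *Slc8a1*, whose profile is led by 1 library, 100 genes passed 0.95, led by *Sar1b*, *Fkbp2* and *Hmox1*. With 6 libraries and this many candidates, such r values are a description of shape only.

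The other genes of calcium handling were taken from 3 lists of 92 symbols that leave out the 7 genes, of which 73 were listed and 69 tested. Of these 69 genes, 2 were lower and 1 was higher in *Gfi1*cre/+ at an unadjusted p under 0.05 (limma), where 3.04% of all genes were called, 2.02% in the lower and 1.02% in the higher direction. None passed at an adjusted p under 0.05, with limma, edgeR or DESeq2. The median log2 difference of the 69 genes was -0.01, with 41 lower and 28 higher. Some of the lower genes reached the minimum of 40 normalized reads only in *Gfi1*+/+ libraries, which favours the lower direction.

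None of the 15 other pumps and exchangers was called, at a median log2 difference of 0.01. Those with the highest level per kilobase were *Bsg* and *Nptn*, whose products are partner subunits of the PMCA pumps, and *Atp2a2*, which encodes the SERCA2 pump of the endoplasmic reticulum. *Bsg* differed by 0.01, *Nptn* by -0.01 and *Atp2a2* by -0.07. After *Atp2b3*, the lowest p in this list belonged to *Slc24a2*, a potassium-dependent exchanger (log2 difference -0.55, SE 0.28), and *Atp2c1*, the Golgi calcium pump (0.10, SE 0.06). *Slc24a2* was highest in *Gfi1*+/+ replicate 1, at 2.21 times the mean of the others. Its difference ran from -0.79 to -0.21 on leaving out 1 library.

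Both genes called in the lower direction were among the 35 tested EF-hand buffers and sensors, and both encode neuronal calcium sensors. *Vsnl1*, which encodes visinin-like 1, was at 310, 131 and 154 normalized reads in *Gfi1*+/+ and at 87.0, 102 and 106 in *Gfi1*cre/+, so the genotypes did not overlap. Its log2 difference was -0.90 (SE 0.28, unadjusted p = 0.00958, adjusted p = 0.999, limma), and it was -0.53 without *Gfi1*+/+ replicate 1. *Ncs1*, which encodes neuronal calcium sensor 1, was at 402, 294 and 267 in *Gfi1*+/+ and at 225, 239 and 241 in *Gfi1*cre/+. Its log2 difference was -0.43 (SE 0.14, unadjusted p = 0.0132, adjusted p = 0.999, limma), and it was -0.26 without *Gfi1*+/+ replicate 1. The next gene, *Hpca*, which encodes hippocalcin, was at 160, 48.2 and 31.6 in *Gfi1*+/+ and between 27.0 and 31.1 in *Gfi1*cre/+, with a log2 difference of -1.07 (SE 0.50) that was -0.40 without *Gfi1*+/+ replicate 1. The highest library of all 3 was *Gfi1*+/+ replicate 1, in which the neuron markers were also highest, and the part of neuronal RNA in these differences was not tested. In this list 26 genes were lower and 9 higher, with a median log2 difference of -0.06. *Hpca*, *Hpcal4*, *Cabp1* and *Kcnip1* reached the minimum of 40 normalized reads only in *Gfi1*+/+ libraries, which favours the lower direction. The most abundant genes of the list per kilobase, *S100b* (0.18), *S100a1* (-0.10) and *Calr* (0.10), were not called. *S100b* is also a marker of glia, and calreticulin, encoded by *Calr*, binds calcium in the endoplasmic reticulum without an EF hand.

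In the 19 tested genes of calcium stores, store-operated entry and mitochondrial uptake, *Orai1*, the pore of the store-operated channel, was at 549, 535 and 598 normalized reads in *Gfi1*+/+ and at 641, 627 and 629 in *Gfi1*cre/+. Every *Gfi1*cre/+ library was above every *Gfi1*+/+ library. The share of all genes apart in this direction was not counted, so nothing is read from the separation. The log2 difference was 0.17 (SE 0.06, unadjusted p = 0.0242, adjusted p = 0.999, limma), and the unadjusted p rose to between 0.0525 and 0.0863 on leaving out any library other than *Gfi1*+/+ replicate 3. *Itpr3* and *Itpr1*, which encode receptors that release stored calcium, followed by p with log2 differences of 0.18 and 0.09 and were not called. *Saraf* and *Smdt1*, with *Itpr1* the most abundant of the list per kilobase, differed by -0.00 and -0.01. The list had 8 genes lower and 11 higher, at a median of 0.03.

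**Figure D5:**
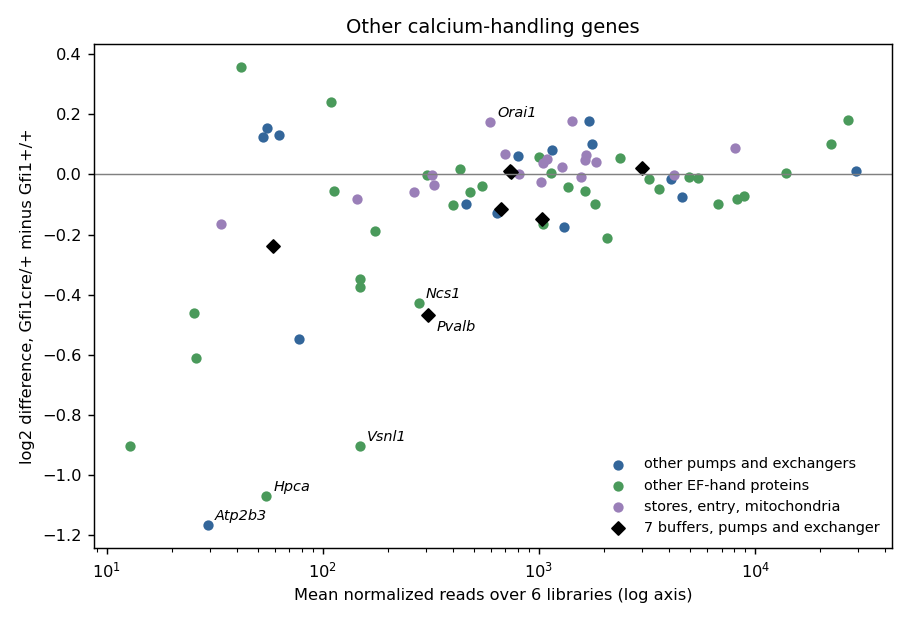
Log2 difference, *Gfi1*cre/+ minus *Gfi1*+/+, against the mean normalized reads over the 6 libraries (log axis) for 69 other calcium-handling genes (coloured by list) and the 7 buffers, pumps and exchanger (black diamonds). The more abundant genes lie close to 0, and among the labelled genes *Vsnl1*, *Ncs1*, *Hpca*, *Atp2b3* and *Pvalb*, at means between 29.4 and 307 normalized reads, lie lower. *Kcnip1* (-0.91), *Cabp1* (-0.61), *Slc24a2* (-0.55) and *Hpcal4* (-0.46), which are not labelled, also lie low, at means between 12.9 and 77.9.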

How the data were processed

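RNA was sequenced from P8 cochlear ducts in 6 libraries. The authors prepared the libraries from poly(A) RNA with the TruSeq kit, aligned reads to mm10 with TopHat, counted uniquely mapped reads per gene with HTSeq and listed genes with 40 or more reads. The deposited signal is described as quantile-normalized, but 100% of values in each library were whole reads (within 0.01 read) divided by 1 size factor per library, so that 3 reads, the limit that a count of 0 allows, correspond to between 2.61 and 3.70 normalized reads. Each column name gave the genotype and the replicate number of its sample. Versions and strand setting are not given in the sources used here.

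The 14455 genes that reached 40 normalized reads in some library were fitted with limma (version 3.58.1, R 4.3.3) on log2(value + 1), which understates changes of low genes, with genotype as the only term, eBayes with a trend, two-sided, and Benjamini-Hochberg adjustment over all genes tested. edgeR (4.0.16, quasi-likelihood) and DESeq2 (1.42.0) on the recovered reads, which called 4 and 10 genes at an adjusted p under 0.05, were alternatives, with other pseudocounts, minima and normalizations, a replicate block and each library left out. Exonic lengths and positions came from GENCODE (GRCm38), which matched 14796 of the 14865 identifiers. The fits were run on simulated counts with known changes. Those counts held no library that stood apart and no pools of mice, so the run does not cover these features of the data. The 7 genes and all lists were chosen with earlier results of these data known. Named are the 7 genes, *Otof*, *Nefm*, 4 paralogs, and the 3 genes of lowest p and the 3 of highest level per kilobase in each calcium list. Also named are the 3 genes most like each member, and markers and list genes needed beside a value. The labels do not say whether the replicate numbers pair the libraries, and the libraries were treated as unpaired.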

Additional observations from a re-analysis of the deposited data

How the results depend on the processing

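With 3 libraries per genotype, 1 library can decide a value, and *Gfi1*+/+ libraries are single animals whereas *Gfi1*cre/+ libraries are pools. Over all genes, the 4 calls at an adjusted p under 0.05 became 0 with a minimum mean of 200 normalized reads, 10 with DESeq2 and between 0 and 48 on leaving out 1 library, and the 439 at an unadjusted p became 229 with that minimum and between 216 and 2340 on leaving out 1 library. The highest counts, 48 and 2340, came without *Gfi1*+/+ replicate 3. The adjusted count was 0 without *Gfi1*cre/+ replicate 3 and 8 without *Gfi1*+/+ replicate 2, and the unadjusted count was 216 without *Gfi1*cre/+ replicate 2 and 248 without *Gfi1*cre/+ replicate 3. Of the 69 other calcium genes, the 3 at an unadjusted p became 5 with edgeR, 5 with DESeq2, 5 with the replicate block and between 2 and 16 on leaving out 1 library (16 without *Gfi1*+/+ replicate 3, 7 without *Gfi1*+/+ replicate 2), and the 0 at an adjusted p became at most 1, *Slc8a3*. The cause was not tested. The other alternatives left these counts within 1.5 times of the value reported.

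*Pvalb*, *Atp2b1* and *Slc8a1* kept the sign of their log2 difference in every alternative run, *Slc8a1* having no value at that minimum. Among the alternatives, the other minima, the fit without a trend and the replicate block leave a log2 difference unchanged by construction. A kept sign in those carries no weight. *Calb2* and *Atp2b2* turned only relative to *Otof*, *Calb1* in 5 and *Atp2b4* in 3 of 18 alternatives. The scale relative to *Otof* shifts every gene by the same amount, so the turns of *Calb2* and *Atp2b2* follow by construction. The labels do not state whether same-numbered replicates shared a litter or batch. The correlations of the deviations of same-numbered libraries were -0.0944, 0.107 and -0.0326, and those between libraries of unlike number ran from -0.156 to 0.15. With the replicate block, 4 genes were called at an adjusted p and 462 at an unadjusted p.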
